A study of Mus musculus with 9 samples.

Results

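The genes described here encode carriers of glucose and other sugars, of lactate and related acids, and of amino acids in the luminal epithelium of the mouse mammary gland. They were chosen by symbol, as all genes named Slc1a, Slc2a, Slc3a, Slc5a, Slc6a, Slc7a, Slc16a, Slc36a, Slc38a or Slc43a followed by a digit. Of the 27179 genes in the count table, 106 matched. Of these, 102 encode carriers, and Slc36a1os, Slc6a19os, Slc2a4rg-ps and Slc7a6os carry a matching symbol without being carriers. In all, 19 of the 106 had no count in any library, 65 passed the filter on low counts and were tested, and 41 were not tested.

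RNA from adult mammary glands was sequenced in 9 libraries, 3 from each of 3 populations of luminal cells that had been sorted as lineage negative. Of the population labelled HR- LP, cells carried the surface protein CD14 and lacked a YFP reporter tied to PR-cre, that is, a Cre recombinase under the control of the progesterone receptor gene. Those labelled HR+ LP had both CD14 and YFP. Cells labelled ML lacked CD14 and are YFP positive in the sample labels but YFP negative in the series' design text, and the sample labels were followed here. A Cre reporter marks cells in which the driver gene was active at some time, so YFP need not equal present expression of the receptor. The labels do not spell out HR, LP or ML. The mouse strain, the reporter allele, the number of animals and any pooling are not stated in the sources used here. The labels do not say that libraries of a population came from separate animals, so p-values measure the spread between these libraries, which may be technical.

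Libraries held 27219103 to 108119756 counts. Levels are given as CPM, counts normalised to a common library size with TMM factors. Cd14 lay at 995.1 to 1179.2 CPM in HR- LP, at 282.9 to 348.4 in HR+ LP and at 18.3 to 30.3 in ML, and Pgr, the progesterone receptor gene, at 6.12 to 15.8, 203.7 to 328.8 and 274.8 to 555.9. A list of 8 general luminal markers summed to 13798 to 18427 CPM over all libraries, whereas 8 basal markers summed to 24.3 to 66.9 CPM and 8 immune markers to 1.04 to 2.35 CPM. Summed endothelial markers were 7.30 to 14.6 CPM in HR- LP, 40.6 to 63.0 in HR+ LP and 59.7 to 80.8 in ML, a difference carried by Vwf, while Cdh5 and Emcn were below 2 CPM in every library. Summed fibroblast markers were 74.5 to 122, 61.5 to 268 and 107 to 318 CPM, but Dcn, at 8.94 ± 2.14, 129 ± 109 and 153 ± 128 CPM (SD, n = 3), went against most of the list. Of its 8 markers, 5 were lower and 1, Dcn, higher in HR+ LP than in HR- LP, with a median log2 fold change of −2.07. Summed erythrocyte markers were 0.343 to 1.57 CPM in HR- LP, 3.84 to 11.7 in HR+ LP and 4.62 to 12.4 in ML, and Hba-a1 and Hba-a2 were called higher in HR+ LP and in ML than in HR- LP. The part of such cells in the results below was not tested. In HR- LP, the library of replicate 3 lay away from the other two on the second principal component, which held 10.1% of the variance of log2 CPM.

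Glucose enters cells through the facilitated hexose carriers of the Slc2a family and, against a gradient, through sodium-coupled carriers of the Slc5a family. Lactate and pyruvate move with a proton through a few Slc16a carriers, and with sodium through Slc5a8. Large neutral amino acids are exchanged by light chains of the Slc7a family bound to a heavy chain of the Slc3a family, cationic amino acids pass through other Slc7a carriers, and glutamine and small neutral amino acids through Slc38a and Slc1a carriers. In the lactating gland these carriers feed the synthesis of lactose and milk protein. The libraries here are described by their labels as adult tissue, with no stage of pregnancy or lactation named.

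Within the Slc5a family the highest members went opposite ways between the populations, and their start sites are shown for that reason. Slc5a5 is the sodium iodide symporter, which brings iodide into milk, and Slc5a6 the sodium-dependent vitamin transporter for biotin and pantothenate. Slc5a1 is the sodium glucose cotransporter, Slc5a7 the high-affinity choline transporter and Slc5a8 the sodium-coupled monocarboxylate transporter. The 250 bases before the start of each gene are from RefSeq, build GRCm38.p6, read 5′ to 3′ on the strand of the gene. Of the starts listed for Slc5a6, the more upstream one is shown. Capitals mark every match to 1 of 8 motifs named after the sequences.
Slc5a5, chr8:70892758-70893007, minus strand: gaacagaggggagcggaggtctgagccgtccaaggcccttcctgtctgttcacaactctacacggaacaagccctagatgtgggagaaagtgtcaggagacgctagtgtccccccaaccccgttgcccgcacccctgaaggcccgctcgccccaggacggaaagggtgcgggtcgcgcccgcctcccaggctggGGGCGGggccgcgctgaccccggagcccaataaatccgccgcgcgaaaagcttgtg
Slc5a6, chr5:31048563-31048812, minus strand: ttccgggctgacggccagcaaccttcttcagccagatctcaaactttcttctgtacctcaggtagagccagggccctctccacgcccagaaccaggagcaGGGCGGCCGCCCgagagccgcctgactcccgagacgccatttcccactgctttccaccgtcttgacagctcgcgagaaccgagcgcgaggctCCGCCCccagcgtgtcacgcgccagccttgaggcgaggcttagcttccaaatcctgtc
Slc5a1, chr5:33103969-33104218, plus strand: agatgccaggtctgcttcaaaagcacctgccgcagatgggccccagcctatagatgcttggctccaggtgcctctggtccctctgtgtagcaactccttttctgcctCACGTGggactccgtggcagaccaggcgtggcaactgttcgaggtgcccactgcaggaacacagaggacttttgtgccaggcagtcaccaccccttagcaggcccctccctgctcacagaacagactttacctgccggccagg
Slc5a7, chr17:54299035-54299284, minus strand: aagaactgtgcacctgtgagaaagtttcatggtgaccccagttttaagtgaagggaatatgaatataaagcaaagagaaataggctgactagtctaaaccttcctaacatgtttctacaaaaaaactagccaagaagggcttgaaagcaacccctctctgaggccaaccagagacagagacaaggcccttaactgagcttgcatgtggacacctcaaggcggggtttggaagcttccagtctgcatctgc
Slc5a8, chr10:88885742-88885991, plus strand: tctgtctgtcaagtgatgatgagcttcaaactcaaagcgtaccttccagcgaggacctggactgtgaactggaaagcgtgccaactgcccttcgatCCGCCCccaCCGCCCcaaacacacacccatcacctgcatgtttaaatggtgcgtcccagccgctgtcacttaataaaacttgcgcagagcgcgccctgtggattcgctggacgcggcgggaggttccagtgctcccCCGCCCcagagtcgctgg
The motifs were searched on both strands. They were the consensus estrogen response element, the consensus progesterone and glucocorticoid response element, a STAT site (TTCNNNGAA), a forkhead site (TGTTTAC), an amino acid response element (TGATGNAA), an AP-1 site (TGANTCA), an E-box (CACGTG) and a GC box (GGGCGG). The capitals in these windows are GC boxes in Slc5a5, Slc5a6 and Slc5a8 and an E-box in Slc5a1, and Slc5a7 has no match. The other window of Slc5a6, not shown, holds GC boxes and a forkhead site, GTAAACA on the strand of the gene. A forkhead site was present in 1 of 11 starts of members higher in ML than in HR- LP, in 0 of 15 of those lower and in 3.17% of all windows. The Slc5a5 window held 21 CpG dinucleotides at 66.4% G and C, that of Slc5a6 20 at 63.6% and that of Slc5a8 17 at 58.8%. Slc5a1 had 6 at 60% and Slc5a7 had 1 at 45.6%. Of these 5 windows those of the genes higher in ML held the most CpG, but the window of Slc5a3, a member lower in ML, held 32 at 74.8%.

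Promoter windows were listed for 77 of the 106 members, with 100 starts. The estrogen response element matched in 0 of these starts, against 0.0639% of all 32851 windows, and the progesterone and glucocorticoid response element in 1, against 0.387%. A GC box was present in 46% of member starts and 32.7% of all windows, and an E-box in 12% and 6.02%. Among members higher in ML than in HR- LP, 6 of 11 starts held a GC box and 3 an E-box. Among those lower in ML the counts were 10 and 1 of 15 starts. A match is a description of the letters and not evidence of binding, and no match says only that the letters are not in the window.

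Summed over all members and divided by gene length, the level was of similar size in the populations, at 1168 ± 129 CPM per kilobase in HR- LP, 1076 ± 124 in HR+ LP and 1049 ± 169 in ML (SD, n = 3). Without division by length the order was the reverse, with members holding 0.408 ± 0.0320%, 0.477 ± 0.0320% and 0.518 ± 0.0641% of all counts. The genes that made up the sum per length differed. In HR- LP the highest members per length were Slc3a2 at 324 ± 30.4, Slc2a1 at 206 ± 85.3 and Slc38a2 at 168 ± 17.6 CPM per kilobase. In HR+ LP they were Slc5a5 at 187 ± 71.5, Slc7a2 at 182 ± 28.3 and Slc3a2 at 127 ± 4.99. In ML Slc5a5 reached 272 ± 111 and Slc7a2 271 ± 66.6, ahead of Slc38a2 at 97.6 ± 14.7. Slc5a5 and Slc7a2 did not differ beyond their spread within HR+ LP or within ML. In HR- LP they stood at 5.03 ± 3.27 and 4.25 ± 3.69 CPM per kilobase.

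**Figure D1:**
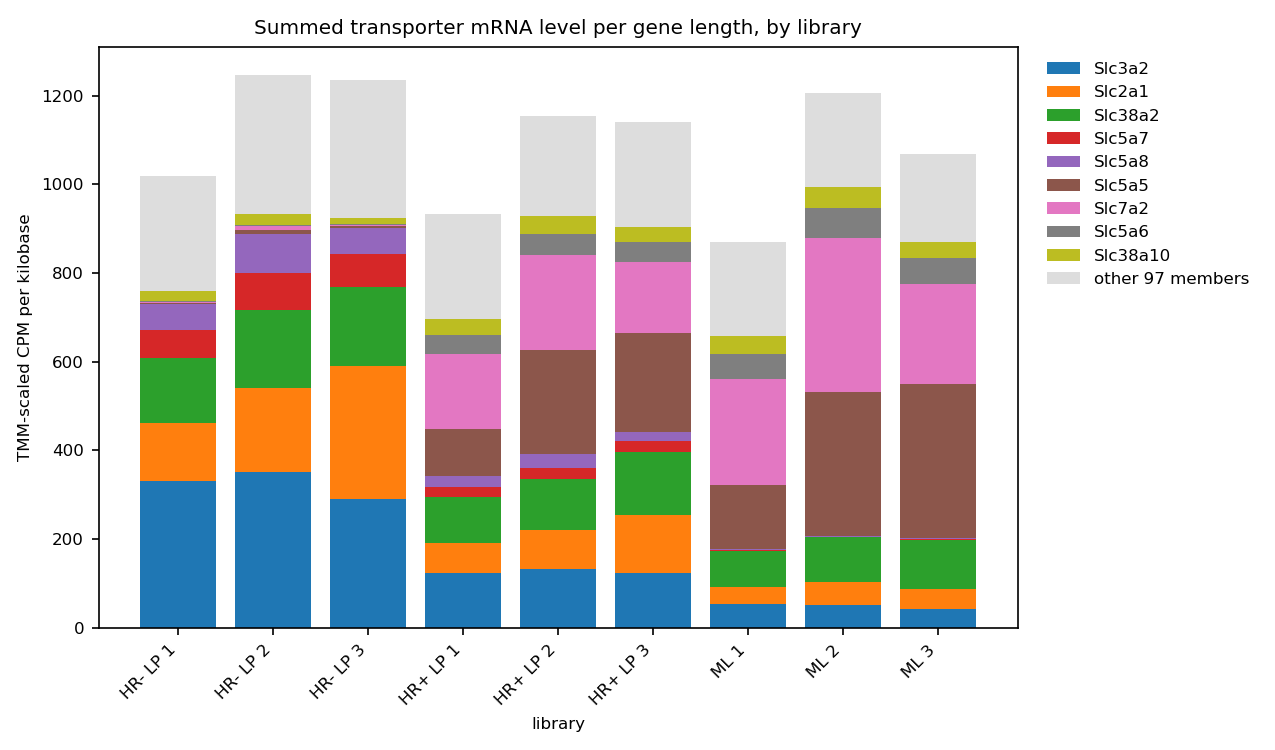
Bars show, for each of the 9 libraries (x axis), the summed level of all 106 members in TMM-scaled CPM per kilobase (y axis, linear from 0), split into 9 leading genes and all others. The total lies between 871 and 1248 in all libraries, while the share of Slc3a2 and Slc2a1 shrinks and that of Slc5a5 and Slc7a2 grows from HR- LP to ML.

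Between HR+ LP and HR- LP, 16 tested members were higher and 16 lower in HR+ LP at an adjusted p below 0.05 in edgeR's quasi-likelihood test. Of all 15910 tested genes, 17.2% were higher and 12.8% lower, together 29.9%, against 49.2% of tested members called either way. CPM of both groups did not overlap for 55.4% of tested members and for 43.9% of all tested genes. Between ML and HR+ LP, 0 members were higher in ML and 14 lower, against 0.0943% and 6.70% of all genes, together 6.79%. At an unadjusted p under 0.05, 0 were higher, and DESeq2 and limma voom also called 0. A fit of those 2 groups alone, without the spread of HR- LP, called Slc38a1 (0.44, adjusted p = 0.0321) and Slc5a6 (0.41, 0.0395) higher. That fit called 216 of 15458 genes higher, against 15 of 15910 in the main test. Between ML and HR+ LP, 38.5% of members and 27.0% of all genes did not overlap.

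Between ML and HR- LP, 17 members were higher and 23 lower in ML, against 23.3% and 21.3% of all genes, together 44.6%. CPM did not overlap for 63.1% of members and 53.1% of all genes. These comparisons share libraries and are not independent of each other. The counts by family given below cover few genes each and were not tested against the shares of all genes. The median log2 fold change over tested members was −0.07 for HR+ LP minus HR- LP, −0.04 for ML minus HR+ LP and 0.03 for ML minus HR- LP, and over all tested genes 0.01, 0.01 and 0.03. Group means fell in the order HR- LP, HR+ LP, ML for 27 members (41.5%, against 36% of all genes) and in the reverse order for 23 (35.4%, against 37.7%). In bulk RNA of this kind, fewer cells that express a gene and less RNA per cell cannot be told apart.

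**Figure D2:**
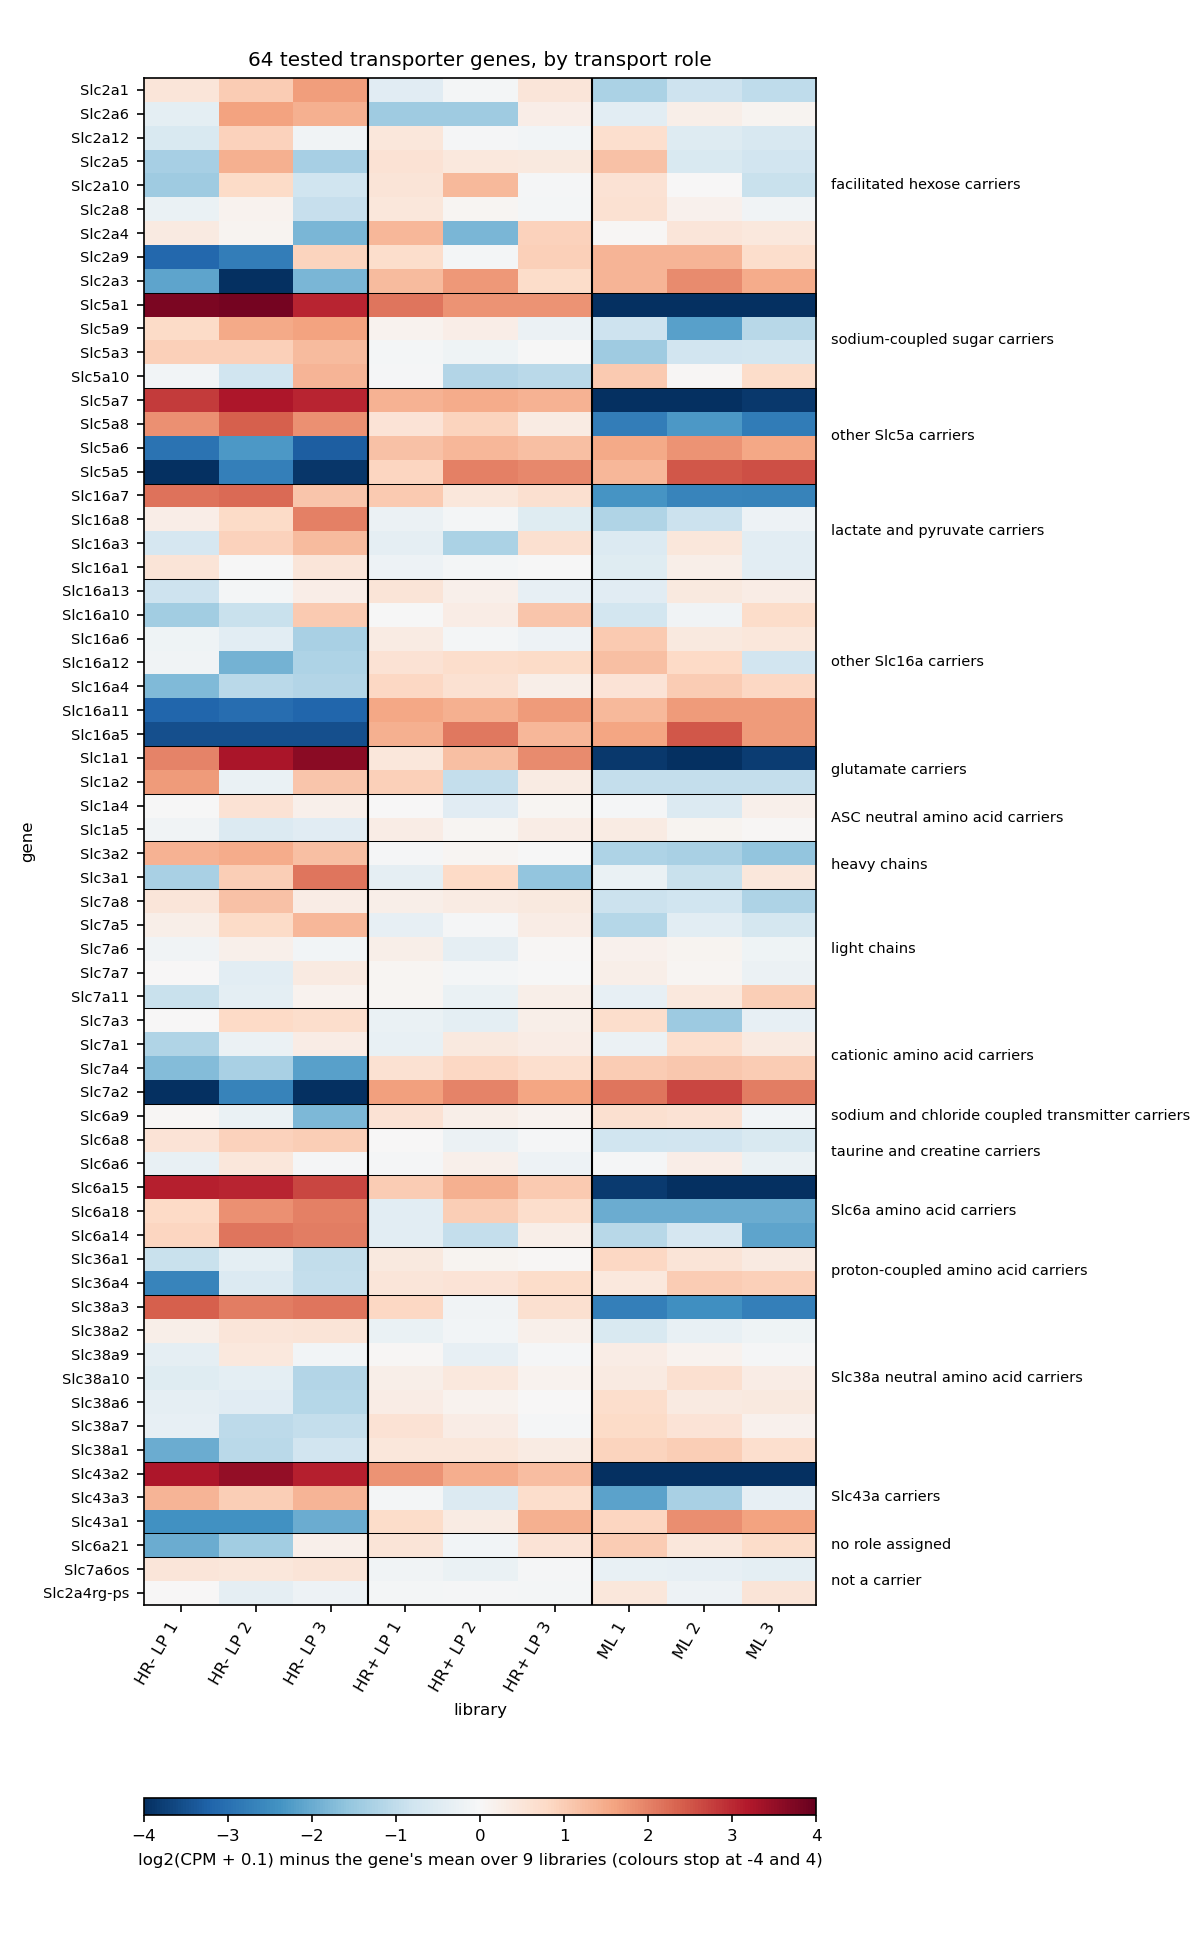
Each row is 1 of 64 tested members, grouped by transport role, and each column 1 of the 9 libraries. Colour gives log2(CPM + 0.1) minus the mean of that gene over all libraries, and among the rows well below their mean in ML are Slc5a1, Slc5a7, Slc43a2 and Slc1a1, whereas Slc7a2 and Slc5a5 are well below theirs in HR- LP.

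Among the 12 facilitated hexose carriers, 9 were tested. Their summed level per length was 215 ± 84.2 CPM per kilobase in HR- LP, 108 ± 29.9 in HR+ LP and 59.0 ± 5.12 in ML (SD, n = 3), most of it from Slc2a1. Slc2a1 (GLUT1, chr4:119108745-119137330, mm10) is the basal glucose carrier of many epithelia. Its level was 336, 488 and 768 CPM in HR- LP, 174, 229 and 336 in HR+ LP, and 100.3, 134 and 119 in ML. Every ML library lay below every other library, whereas the lowest HR- LP and the highest HR+ LP library were alike. The log2 fold change was −1.11 ± 0.30 (SE) for HR+ LP minus HR- LP (adjusted p = 0.0178) and −2.17 ± 0.31 for ML minus HR- LP (adjusted p = 1.91e-04). The first of these calls was lost without HR- LP replicate 3 (−0.74, adjusted p = 0.0618), HR+ LP replicate 1 (0.0718) or HR+ LP replicate 2 (0.0708). Between ML and HR+ LP the difference was −1.07 ± 0.30 (adjusted p = 0.0666). It was called with the replicate number as a block (−1.0, adjusted p = 0.00545), and also without HR- LP replicate 1 (0.0262), HR- LP replicate 3 (0.0226) or HR+ LP replicate 1 (0.0393). DESeq2 (−1.03, 0.0137), a fit of those 2 groups (0.0164) and a fit without the filter on low counts (0.0344) called it as well.

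Slc2a3 (GLUT3), a carrier of high affinity for glucose, went the other way. It had 0.424, 0 and 0.537 CPM in HR- LP, 5.43, 7.48 and 3.67 in HR+ LP, and 5.69, 8.34 and 6.29 in ML. The libraries of HR- LP lay below all others, with a log2 fold change of 4.26 ± 0.93 for HR+ LP minus HR- LP (adjusted p = 0.00579). ML differed from HR+ LP by 0.29 ± 0.77 (adjusted p = 0.964). The other 7 tested hexose carriers were called in none of the 3 comparisons. Without HR- LP replicate 3, Slc2a9, a carrier of urate, was called higher in HR+ LP than in HR- LP (5.89, adjusted p = 0.00186), and without HR+ LP replicate 3 Slc2a6 was called lower (−7.79, adjusted p = 0.0312). Slc2a8, an intracellular carrier, had 8.44 to 24.5 CPM over all libraries and Slc2a12 3.11 to 9.45. Slc2a4 (GLUT4), the insulin-responsive carrier, did not exceed 0.791 CPM in any library, and Slc2a2 (GLUT2) had no count.

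Of the 8 sodium-coupled sugar and polyol carriers, 4 were tested, and 3 of them were lower at each step. Of all tested genes, 12.8% were lower at the first step and 6.70% at the second. Slc5a1 had 115, 119 and 69.1 CPM in HR- LP, 37.6, 29.6 and 29.6 in HR+ LP, and 0.301, 0.0425 and 0.0235 in ML. The populations did not overlap. HR+ LP was 3.14-fold below HR- LP by the means (log2 fold change −1.65 ± 0.31, adjusted p = 0.00244). ML was a further 263-fold below HR+ LP (−8.27 ± 0.50, adjusted p = 1.51e-06). The ML mean rests on 12 counts, and without ML replicate 1, which held 9 of them, the fold was 977.

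Slc5a3 carries myo-inositol. It had 111, 109.8 and 139 CPM in HR- LP, 54.3, 50.4 and 56.9 in HR+ LP and 21.4, 33.9 and 34.3 in ML, again without overlap. Its log2 fold changes were −1.16 ± 0.19 (adjusted p = 9.62e-04) and −0.85 ± 0.19 (adjusted p = 0.0157). The second call was lost without HR+ LP replicate 1 (adjusted p = 0.0532) or 3 (0.0651). Slc5a3 shares 1.46% of its exon bases with Mrps6 and Gm49711 on the same strand. Slc5a9, a carrier of mannose and other sugars, had 13.6 to 24.4, 6.75 to 9.46 and 1.66 to 4.42 CPM. It was lower in HR+ LP than in HR- LP (−1.29 ± 0.35, adjusted p = 0.0171). That call was lost without HR- LP replicate 2 (adjusted p = 0.0508), HR+ LP replicate 1 (0.0510) or HR+ LP replicate 3 (0.0679). Between ML and HR+ LP, Slc5a9 was lower by the main test (−1.37 ± 0.36, adjusted p = 0.0427), but not with the replicate block (0.0589) and not under 9 other settings, 6 of which left out HR- LP replicate 2, any HR+ LP replicate, or ML replicate 2 or 3. Their adjusted p lay between 0.0525 and 0.151.

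Of the 4 tested Slc5a carriers of other solutes, 2 were higher and 2 lower in HR+ LP than in HR- LP. The shares of all tested genes were 17.2% and 12.8%. Slc5a5 had 7.31, 25.5 and 11.3 CPM in HR- LP, 307, 686 and 651 in HR+ LP, and 425, 947 and 1021 in ML. Its level in HR+ LP was 37.2-fold that in HR- LP by the means, with a log2 fold change of 5.21 ± 0.56 (adjusted p = 6.27e-05), and 58.9-fold without HR- LP replicate 2. Replicate 1 was the lowest in all 3 populations. ML and HR+ LP overlapped and differed by 0.54 ± 0.46 (adjusted p = 0.796). Between libraries of the same number, ML was 1.38, 1.38 and 1.57 times HR+ LP, and with the replicate block the difference of 0.53 was not called either (adjusted p = 0.211).

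Slc5a6 was steadier between replicates. It had 9.65, 15.5 and 7.62 CPM in HR- LP, 170.4, 189 and 173 in HR+ LP, and 218, 264 and 223 in ML. The rise from HR- LP to HR+ LP was 16.3-fold by the means (4.01 ± 0.25, adjusted p = 2.51e-06). All ML libraries lay above all HR+ LP libraries, but the difference of 0.40 ± 0.22 was not called (adjusted p = 0.513). In a fit of those 2 groups alone it was 0.41 with an adjusted p of 0.0395. Counts of Slc5a6 are less certain than those of Slc5a5, since the libraries do not mark strand, 9.92% of its exon bases overlap Atraid on the opposite strand, and 20.8% of its windows of 50 bases recur in other genes such as Gm6157.

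Slc5a7 and Slc5a8 were high in HR- LP and low in ML. Slc5a7 had 323, 438 and 385 CPM in HR- LP, 120.1, 128 and 122 in HR+ LP, and 2.11, 1.21 and 3.08 in ML. HR+ LP was 3.10-fold below HR- LP (−1.63 ± 0.25, adjusted p = 6.27e-04), and ML 57.8-fold below HR+ LP (−5.86 ± 0.30, adjusted p = 6.51e-07). Slc5a8 had 313, 465 and 309.5 CPM, then 128, 164 and 110.2, then 12.9, 17.9 and 12.5. Its steps were −1.44 ± 0.22 (adjusted p = 6.56e-04) and −3.22 ± 0.23 (adjusted p = 5.20e-06). For both genes the populations did not overlap, and HR+ LP lay nearer to HR- LP than to ML on the log2 scale, the reverse of Slc5a5 and Slc5a6. Over the Slc5a family, 5 of 8 tested carriers were lower and 2 higher in ML than in HR- LP. The shares of all tested genes were 21.3% and 23.3%. Slc5a10, below 1 CPM in every library, was not called.

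**Figure D3:**
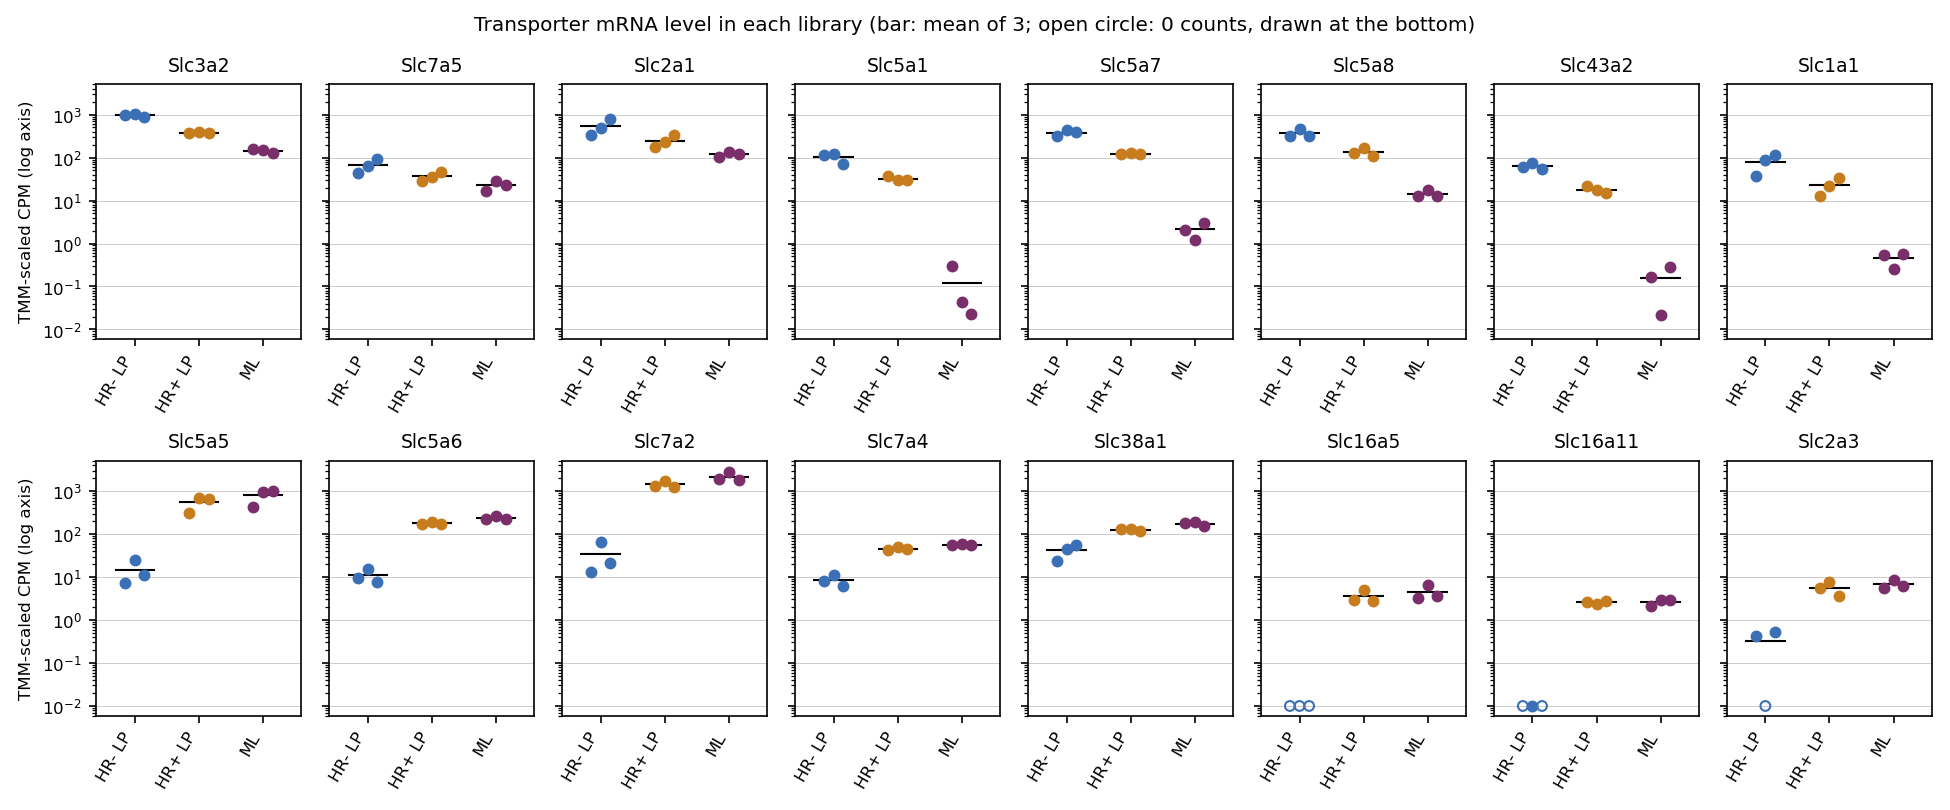
Points give TMM-scaled CPM (y axis, logarithmic) of 16 members in each library of HR- LP, HR+ LP and ML, bars the mean of 3, and open circles libraries with 0 counts drawn at the bottom of the axis. In the top row levels go down from HR- LP to ML, in the bottom row the 3 HR- LP libraries lie below all others.

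Of the 4 Slc16a carriers of lactate and pyruvate, all tested, 2 were lower and 0 higher in ML than in HR- LP. The shares of all tested genes were 21.3% and 23.3%. Slc16a1 (MCT1), the widespread lactate carrier, had 40.7, 27.9 and 39.6 CPM in HR- LP, 24.5, 26.7 and 28.0 in HR+ LP, and 20.3, 33.6 and 21.1 in ML. All 3 populations overlapped and it was not called, with the lowest of its adjusted p at 0.0728 for ML minus HR- LP (−0.53 ± 0.22). Without HR- LP replicate 2 this p was 0.0318, and without ML replicate 2 it was 0.0112. Slc16a3 (MCT4), the carrier tied to lactate export, was low everywhere, at 0.545, 1.83 and 2.36 CPM in HR- LP, 0.696, 0.327 and 1.51 in HR+ LP, and 0.603, 1.30 and 0.659 in ML. No comparison called it.

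Slc16a7 (MCT2), a monocarboxylate carrier of high affinity, had 6.82, 7.39 and 3.22 CPM in HR- LP, 3.13, 2.04 and 2.32 in HR+ LP, and 0.201, 0.149 and 0.141 in ML. It was lower in ML than in HR+ LP (−3.93 ± 0.49, adjusted p = 2.83e-04). The difference between HR+ LP and HR- LP was just called (−1.22 ± 0.41, adjusted p = 0.0439) and was lost under 10 of 17 settings, among them leaving out HR- LP replicate 1 or 2, any HR+ LP replicate, or ML replicate 2 or 3, with adjusted p of up to 0.150. Slc16a8 (MCT3) had 1.68 to 5.94 CPM in HR- LP and 0.536 to 1.18 in ML. That difference was called (−2.03 ± 0.59, adjusted p = 0.0170), but not without HR- LP replicate 3 (0.0805), ML replicate 1 (0.0591) or ML replicate 2 (0.0599). Basigin, encoded by Bsg and needed to place MCT1 and MCT4 in the membrane, was not called at 565 ± 86.4, 562 ± 9.83 and 581 ± 50.9 CPM (SD, n = 3), and was named after its values were seen.

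Among the 8 tested Slc16a carriers with other or unsettled substrates, 4 were higher in ML than in HR- LP, beside 23.3% of all tested genes. Slc16a5 had 0 counts in every HR- LP library, 2.97, 4.90 and 2.78 CPM in HR+ LP and 3.32, 6.40 and 3.63 in ML. Against the limit that 3 counts over the group set, it was at least 198-fold higher in HR+ LP and at least 271-fold higher in ML. Without HR- LP replicate 2, the deepest library, these limits were 87.4 and 120. Slc16a11 had 1 count in all HR- LP libraries together, against 2.57, 2.30 and 2.84 CPM in HR+ LP and 2.14, 2.85 and 2.85 in ML. The ratio of Slc16a11 in HR+ LP to HR- LP was 455, with an exact 95% counting interval of 81.5 to 18013. Both genes overlapped between HR+ LP and ML. Slc16a12 was not called in HR+ LP against HR- LP (1.70 ± 0.63, adjusted p = 0.0656), but it was without HR- LP replicate 1 (0.0171) or ML replicate 3 (0.0436). DESeq2 (0.0269), limma voom (0.0218) and the replicate block (0.0392) also called it.

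Slc16a4 had 0.888 to 1.51 CPM in HR- LP, 3.84 to 5.86 in HR+ LP and 4.79 to 6.72 in ML (1.96 ± 0.34, adjusted p = 0.00167 for HR+ LP minus HR- LP). Slc16a6 was called higher in ML than in HR- LP (1.26 ± 0.43, adjusted p = 0.0340), a call lost under 7 of 17 settings, 6 of them without HR- LP replicate 3, HR+ LP replicate 1 or 2, or any ML replicate. Amz2 and Arsg on the opposite strand share in the 23.5% of its exon bases that overlap other genes.

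The heavy chain Slc3a2 (4F2hc or CD98, chr19:8706882-8723369), which brings several light chains to the cell surface, was the highest member per length in HR- LP, the third in HR+ LP and the fifth in ML. It had 979, 1037 and 861 CPM in HR- LP, 364, 391 and 368 in HR+ LP, and 158, 151 and 125 in ML. The populations were far apart relative to their spread. Its steps were nearly equal on the log2 scale, −1.36 ± 0.14 (adjusted p = 4.91e-05) and −1.37 ± 0.14 (adjusted p = 5.72e-05). Slc3a1, the heavy chain of the cystine and basic amino acid exchanger, did not exceed 3.83 CPM and was not called.

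Of the 10 light chains 5 were tested. Slc7a5 (LAT1), the exchanger of large neutral amino acids, had 43.9, 62.8 and 93.2 CPM in HR- LP, 29.2, 36.1 and 45 in HR+ LP, and 16.8, 27.8 and 22.7 in ML. It was lower in ML than in HR- LP (−1.57 ± 0.28, adjusted p = 9.92e-04), with no overlap. The groups of HR+ LP and HR- LP overlapped, and that call (−0.86 ± 0.28, adjusted p = 0.0385) was lost without HR- LP replicate 2 (0.0673) or 3 (−0.54, 0.139), HR+ LP replicate 1 (0.139) or 2 (0.112), or ML replicate 3 (0.0550), and in a fit of those 2 groups (0.0576). For ML minus HR+ LP it was −0.71 ± 0.28 (adjusted p = 0.253), and with the replicate block −0.71 with an adjusted p of 0.0344.

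Slc7a8 (LAT2) was lower in ML, at 0.730 to 1.04 CPM, than in HR- LP, at 2.33 to 4.30 CPM (−1.76 ± 0.43, adjusted p = 0.00667). Slc7a11 (xCT), the cystine and glutamate exchanger, was low, with 0.767, 1.11 and 1.68 CPM in HR- LP, 1.59, 1.24 and 1.79 in HR+ LP, and 1.17, 2.04 and 3.06 in ML. All 3 groups of Slc7a11 overlapped, and it was not called. Slc7a6 and Slc7a7, light chains that exchange cationic for neutral amino acids, stayed between 8.39 and 15.5 CPM in all libraries and were not called. Their log2 differences lay between −0.01 and 0.04 with SE of 0.22 to 0.23.

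Of the 4 tested carriers of cationic amino acids, 2 were higher and 0 lower in HR+ LP and in ML than in HR- LP. Of all tested genes, 17.2% were higher and 12.8% lower in HR+ LP, and 23.3% and 21.3% in ML. Slc7a2 (CAT2, chr8:40862341-40922070), which takes up arginine, lysine and ornithine, had 12.9, 66.6 and 20.8 CPM in HR- LP, 1331, 1686 and 1275 in HR+ LP, and 1883, 2729 and 1772 in ML. Its level in HR+ LP was 42.8-fold that in HR- LP by the means (5.41 ± 0.57, adjusted p = 5.54e-05), and 85.1-fold without HR- LP replicate 2. All ML libraries lay above all HR+ LP libraries, but the difference of 0.57 ± 0.47 was not called (adjusted p = 0.778). On the opposite strand, Gm26584 overlaps 6.95% of the exon bases of Slc7a2.

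Slc7a4, a relative of these carriers, had 8.15, 11.3 and 6.08 CPM in HR- LP, 41.8, 48.7 and 44.5 in HR+ LP, and 55.9, 58.2 and 55.7 in ML. It was 5.28-fold higher in HR+ LP than in HR- LP (2.39 ± 0.21, adjusted p = 1.68e-05). P2rx6 overlaps 13.3% of its exon bases on the opposite strand. Slc7a1 (CAT1), the widespread arginine carrier, had 15.1 to 42.6, 28.4 to 45.8 and 29.4 to 55.2 CPM, with overlap between all groups, and was not called.

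Slc1a1 (EAAC1), the carrier of glutamate, aspartate and cysteine, had 36.6, 89.8 and 113 CPM in HR- LP, 12.5, 21.2 and 34.2 in HR+ LP, and 0.536, 0.255 and 0.565 in ML. The populations did not overlap, although the highest HR+ LP library, at 34.2, came close to the lowest HR- LP library. Slc1a1 was lower in HR+ LP than in HR- LP (−1.82 ± 0.43, adjusted p = 0.00887) and lower again in ML (−5.67 ± 0.57, adjusted p = 4.99e-05), the latter not called by limma voom (0.147). The gene 4430402I18Rik overlaps 31.9% of its 8257 exon bases in GENCODE on the opposite strand. The deposited length is 3708 bases, and whether the overlap lies in the counted bases was not checked. Where it does, reads of both cannot be told apart. Slc1a2 (GLT1) had 0 counts in ML and at most 0.525 CPM elsewhere, and was at least 9.31-fold lower in ML than in HR- LP (adjusted p = 0.0418). This limit was between 4.75 without HR- LP replicate 1 and 18 without HR- LP replicate 2, and 5.64 and 6 without ML replicates 2 and 3. The call was lost under 9 of 15 settings, 7 of them without HR- LP replicate 1 or 3, HR+ LP replicate 1 or 3, or any ML replicate.

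Slc1a5 (ASCT2), an exchanger of glutamine and small neutral amino acids, had 37.1, 27.8 and 30.1 CPM in HR- LP, 49.9, 42.9 and 50.0 in HR+ LP, and 51.8, 44.4 and 42.4 in ML. It was higher in HR+ LP than in HR- LP (0.59 ± 0.15, adjusted p = 0.0144), without overlap. That call was lost without HR+ LP replicate 1 (0.0562) or 3 (0.0546). Its relative Slc1a4 (ASCT1) lay between 33.0 and 71.4 CPM and was not called.

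Of the 11 Slc38a carriers 7 were tested, and 4 of them were higher in HR+ LP and in ML than in HR- LP. The shares of all tested genes were 17.2% and 23.3%. Slc38a1 (SNAT1), which takes up glutamine, had 24.1, 44.3 and 56.2 CPM in HR- LP, 131, 131 and 118 in HR+ LP, and 176, 188 and 151 in ML. The groups did not overlap, with 1.61 ± 0.25 (adjusted p = 7.75e-04) for HR+ LP minus HR- LP, and 0.44 ± 0.24 (adjusted p = 0.539) for ML minus HR+ LP. In a fit of the last 2 groups alone the difference was called, at 0.44 with an adjusted p of 0.0321. Slc38a10 had 117, 126 and 72.6 CPM, then 193, 220.2 and 181, then 213, 255 and 201 (0.91 ± 0.20, adjusted p = 0.00592 for the first step). Slc38a7, a glutamine carrier of the lysosome, and Slc38a6 were higher in HR+ LP by 1.04 ± 0.25 (adjusted p = 0.0103) and 0.77 ± 0.21 (adjusted p = 0.0182). The call for Slc38a6 was lost without HR+ LP replicate 1 (0.0710) or 2 (0.0537), and 35.5% of its windows of 50 bases recur in other genes such as Noct.

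Slc38a2 (SNAT2), a carrier induced by amino acid shortage, had the highest level per length of the family and went the other way. It had 685, 816 and 833 CPM in HR- LP, 484, 533 and 659 in HR+ LP, and 378, 466 and 512 in ML. ML lay below HR- LP without overlap (−0.78 ± 0.17, adjusted p = 0.00290). HR+ LP also lay below HR- LP without overlap, by −0.48 ± 0.17, with an adjusted p of 0.0518. This difference was called without HR- LP replicate 1 (0.0265), HR+ LP replicate 3 (0.0369) or ML replicate 1 (0.0493). Among other settings, DESeq2 (0.0139), limma voom (0.0295) and the replicate block (0.00575) called it too. Slc38a3 (SNAT3) had 3.35, 2.6 and 2.79 CPM, then 1.08, 0.498 and 0.920, and a single count over the ML libraries. Its ratio of HR+ LP to ML was 105, with an exact 95% counting interval of 18.6 to 4162. The lower level in HR+ LP than in HR- LP was just called (−1.80 ± 0.62, adjusted p = 0.0495) and was lost under 11 of 17 settings, including the loss of any HR- LP or HR+ LP replicate or of ML replicate 2 or 3. Slc38a9, the arginine sensor of the lysosome, had 25.6 to 44.1 CPM over all libraries and was not called.

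Slc43a2 (LAT4), which lets branched-chain and other large neutral amino acids pass by facilitated diffusion, had 60.5, 73.3 and 54.4 CPM in HR- LP, 21.8, 17.3 and 15 in HR+ LP, and 0.167, 0.0213 and 0.283 in ML. By the means it was 3.48-fold lower in HR+ LP than in HR- LP (−1.80 ± 0.29, adjusted p = 0.00103) and 115-fold lower in ML than in HR+ LP (−6.87 ± 0.43, adjusted p = 2.13e-06), where ML held 18 counts. Without ML replicate 3, which had 12 of them, the second fold was 191. Gm45606 overlaps 9.18% of its exon bases on the opposite strand. Its relative Slc43a1 (LAT3) showed the opposite order at a low level, with 1 count over HR- LP, 0.801, 0.576 and 1.35 CPM in HR+ LP, and 0.871, 1.83 and 1.55 in ML. The ratio of HR+ LP to HR- LP was 164, with an exact 95% counting interval of 29.2 to 6509. Slc43a3 was called lower in ML than in HR- LP (−2.54 ± 0.72, adjusted p = 0.0138), but not without ML replicate 2 (0.0545).

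Of the Slc6a carriers of amino acids, Slc6a15 (B0AT2), which takes up branched-chain amino acids and proline, was lower at each step. It had 16.3, 15.7 and 12 CPM in HR- LP and 3.79, 5.03 and 3.86 in HR+ LP (−1.80 ± 0.32, adjusted p = 0.00174). ML held 1 count, in replicate 1, and the ratio of HR+ LP to ML was 492, with an exact 95% counting interval of 88.0 to 19435. Slc6a18 had 0.585, 1.29 and 1.5 CPM, then 0.191, 0.685 and 0.537, and 0 counts in every ML library, so that HR+ LP was at least 17.3-fold and HR- LP at least 44.7-fold higher than ML. These limits were 10.5 and 27.1 without ML replicate 2, and 11.1 and 28.8 without ML replicate 3. The call between ML and HR+ LP (adjusted p = 0.0154) was lost without ML replicate 2 (0.0582) and with limma voom (0.0874). Slc6a14 was lower in ML than in HR- LP (−3.90 ± 1.18, adjusted p = 0.0195), a call lost without HR- LP replicate 2 (0.0503) or ML replicate 1 (0.0564). Slc6a19, not tested, had 0.747, 2.41 and 0 CPM in HR- LP, 0.143, 0 and 0 in HR+ LP and 0 counts in ML. Of its 272 counts in HR- LP, 235 were in replicate 2.

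Slc6a8, the creatine carrier, had 121, 158 and 164 CPM in HR- LP, 82.6, 69.6 and 79.7 in HR+ LP, and 47.0, 48.5 and 54.5 in ML, without overlap. Its steps were −0.94 ± 0.15 (adjusted p = 8.16e-04) and −0.63 ± 0.15 (adjusted p = 0.0232). The second was lost without HR+ LP replicate 1 (0.106) or 3 (0.0938) or ML replicate 1 (0.110) or 2 (0.121). Slc6a6, the taurine carrier, had 46.6 to 78.4 CPM over all libraries and was not called, with differences of −0.07 ± 0.21 and −0.00 ± 0.21. Of the 10 carriers of neurotransmitters and related solutes, only Slc6a9, the glycine carrier, was tested, and it was not called at 1.43 to 8.24 CPM.

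Both tested proton-coupled amino acid carriers were higher in HR+ LP and ML than in HR- LP, beside 17.2% and 23.3% of all tested genes. Slc36a1 (PAT1), which exports small amino acids from lysosomes, had 9.12 to 13.8 CPM in HR- LP, 18.8 to 23.9 in HR+ LP and 23.3 to 32.1 in ML (0.92 ± 0.21, adjusted p = 0.00680 for HR+ LP minus HR- LP). Slc36a4 (PAT4) had 1.17 to 5.32, 11 to 13 and 10.6 to 16 CPM (1.75 ± 0.43, adjusted p = 0.0113). Slc7a6os, no carrier but among the 10 highest per length, had 65, 62.7 and 66.6 CPM, then 41.4, 38.3 and 44.9, then 37.8, 36.4 and 35.1. It was lower in HR+ LP than in HR- LP (−0.64 ± 0.12, adjusted p = 0.00253).

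**Figure D4:**
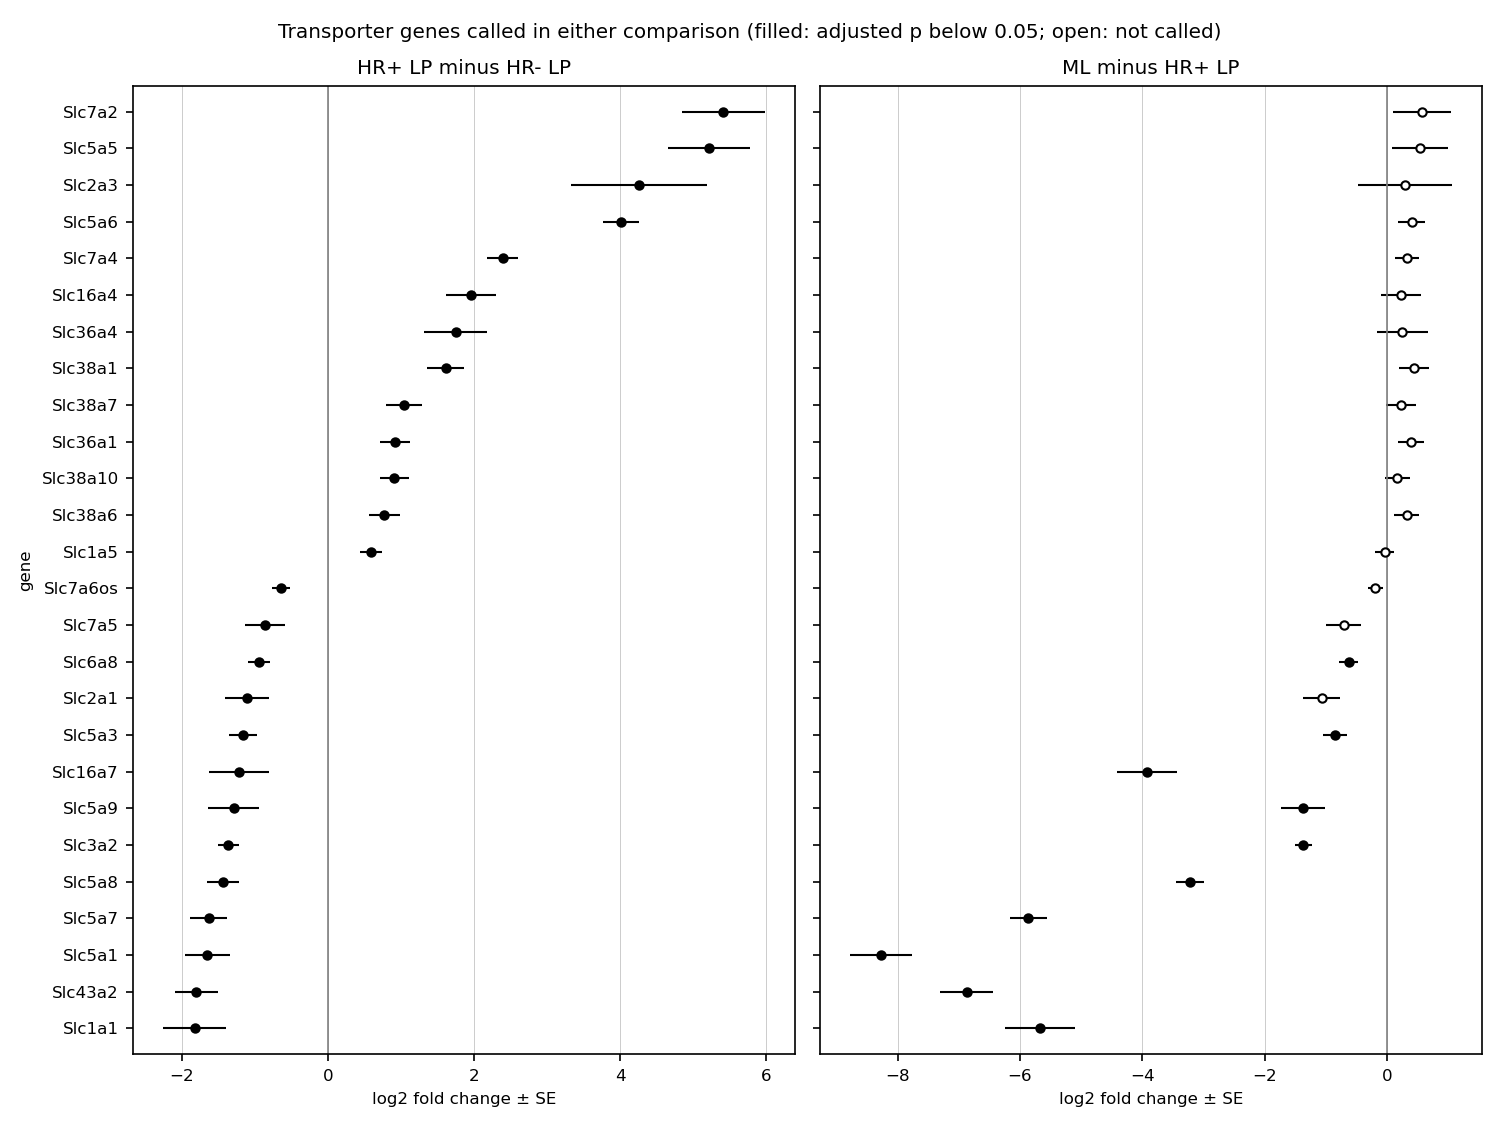
Log2 fold changes with SE (x axes) of 26 members (y axis) that were called in at least 1 of the 2 comparisons and had more than 3 counts in each group, with filled points for an adjusted p below 0.05. Members higher in HR+ LP than in HR- LP sit near 0 and are open in the panel for ML minus HR+ LP, whereas most members lower in HR+ LP go down again in ML.

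The genes around the hexose carriers also differed between populations. Of 5 tested genes that trap glucose or control the turnover of its carriers, 1 was higher and 2 were lower in HR+ LP than in HR- LP. In ML, 2 were lower than in HR+ LP. The called shares were 60% and 40%, beside 29.9% and 6.79% of all tested genes. Hk2, a hexokinase, had 14.7 ± 11.8, 118 ± 32.1 and 167 ± 35.7 CPM in HR- LP, HR+ LP and ML (SD, n = 3), with 3.02 ± 0.54 (adjusted p = 0.00186) for the first step. Txnip, an arrestin that withdraws GLUT1 from the surface, had 2427 ± 685, 1108 ± 141 and 421 ± 26.2 CPM (−1.13 ± 0.20, adjusted p = 0.00150, then −1.40 ± 0.20, adjusted p = 7.44e-04). Its relative Arrdc4 had 374 ± 55.7, 169 ± 32.4 and 85.6 ± 23.1 CPM. Of 7 factors that respond to sugar or oxygen, Hif1a was the only one higher in HR+ LP than in HR- LP, at 128 ± 39.1, 474 ± 104 and 695 ± 210.4 CPM (1.89 ± 0.29, adjusted p = 7.47e-04), and 3 were lower. Mlxip, a glucose-sensing factor, was among those lower, at 359.6 ± 115, 188 ± 19.3 and 94.2 ± 6.60 CPM. The called share of the 7 factors was 57.1% in HR+ LP against HR- LP, beside 29.9% of all tested genes.

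Of the 3 tested lactate dehydrogenases, Ldhb, the form that favours pyruvate, had 30.6 ± 6.71, 7.95 ± 1.60 and 0.357 ± 0.211 CPM, lower at each step by −1.95 ± 0.33 (adjusted p = 0.00145) and −4.50 ± 0.41 (adjusted p = 2.69e-05). Ldha was at 549 ± 21.2, 448 ± 55.4 and 400.1 ± 78.6 CPM and was called only for ML minus HR- LP (−0.46 ± 0.16, adjusted p = 0.0416). Ldhd, which acts on D-lactate, was higher in HR+ LP than in HR- LP (0.52 ± 0.13, adjusted p = 0.0111).

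Some members are known targets of the amino acid response, in which the factor ATF4 is made more when amino acids run short. Of these, Slc3a2, Slc7a5 and Slc38a2 were lower in ML than in HR- LP, whereas Slc1a5 was higher (0.54 ± 0.15, adjusted p = 0.0141). Slc7a11, Slc1a4 and Slc7a1 were not called by the main test. Among 18 other genes of that response, 2 were higher and 6 lower in HR+ LP than in HR- LP. The counts were 0 and 4 in ML against HR+ LP, and 3 and 8 in ML against HR- LP. Both directions together made 44.4%, 22.2% and 61.1% of the list, against 29.9%, 6.79% and 44.6% of all tested genes. The median log2 fold change over the list was −0.31, −0.18 and −0.51, against 0.01, 0.01 and 0.03 over all tested genes. Atf4 itself had 811 ± 56.3, 367 ± 47.7 and 208 ± 28.3 CPM (−1.14 ± 0.15, adjusted p = 2.61e-04, then −0.82 ± 0.15, adjusted p = 0.00485). Ddit3, Sesn2, Cebpb, Cebpg and Vldlr were the others lower in HR+ LP than in HR- LP. Nupr1 and Phgdh, the first enzyme of serine synthesis, were higher, Phgdh at 1.56 ± 0.208, 13.2 ± 0.636 and 20.9 ± 2.84 CPM. Asns, the asparagine synthetase often used to read this response, was not called at 25.5 ± 4.39, 33.9 ± 5.49 and 33.7 ± 4.76 CPM, and was named after its values were seen.

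Among 8 genes of glutamine and glutamate use, Glul, the glutamine synthetase, had 702 ± 123, 4058 ± 1435 and 5383 ± 2160 CPM and was higher in HR+ LP than in HR- LP (2.53 ± 0.34, adjusted p = 3.20e-04). Glud1 and Got1 were also higher. Of 6 genes of cystine and glutathione metabolism, 5 were higher in HR+ LP and in ML than in HR- LP, and 0 lower. Called genes thus made up 83.3% of the list in both comparisons, beside 29.9% and 44.6% of all tested genes. Gclc, which starts glutathione synthesis, had 53.6 ± 18.9, 494 ± 136 and 735 ± 228 CPM (3.21 ± 0.33, adjusted p = 4.79e-05), beside the low level of the cystine exchanger Slc7a11. Of 10 tested genes of branched-chain amino acid breakdown, Bcat2, Dbt, Ivd and Mccc2 were higher and 0 lower in HR+ LP than in HR- LP. That is 40%, beside 29.9% of all tested genes. The carriers Slc43a2, Slc6a15 and Slc7a5 were lower in this comparison, and Slc43a1, the relative of Slc43a2, was higher. The call for Slc7a5 was lost under 6 of 17 settings.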

How the data were processed

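Values deposited by the authors are raw counts for each gene, from featureCounts on mm10 per the submitters' processing notes. Neither the aligner, the annotation nor the handling of multiply mapped reads is given in the sources used here. RNA was prepared with the TruSeq kit v2, per the labels' protocols, which does not mark strand. The series table and the sample files held equal counts. NCBI gene IDs were matched to RefSeq symbols of GRCm38.p6 (25275 of 27179), and 1904 unnamed IDs stayed in the tests.

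Genes were filtered with filterByExpr, scaled by TMM and tested with edgeR's quasi-likelihood F test on all 9 libraries without covariate. Adjustment was by Benjamini-Hochberg over 15910 genes, with calls below 0.05. The procedure was tested on simulated data, a check whose result is not given here and which adds no support to the calls. SE is the log2 fold change divided by the root of F. Levels per kilobase use the length deposited by the authors with the counts. Overlaps and repeated windows come from GENCODE vM21. Its exons are for many members longer in sum than the deposited length, and the bases concerned were not matched to those counted. Where a group had 0 counts, a fold is a lower bound against 3 counts over the group, and intervals cover counting error only. With 3 libraries per group, spread between libraries sets the precision of genes above a few CPM. The tools were edgeR 4.0.16, DESeq2 1.42.0 and limma 3.58.1 in R 4.3.3, with Python 3.11.15 and, for plots, matplotlib 3.10.9.

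Members, gene lists, roles and motifs were chosen with earlier results of these data known. Values in every library are given for members with the 8 largest changes each way among those called with a mean over 1 CPM in a group, the 10 highest per length, and Slc2a1, Slc5a1, Slc16a1, Slc16a3, Slc3a2, Slc7a5, Slc7a11, Slc1a5 and Slc38a2. Cd14 and Pgr check the sort. A few genes, 1 of them a tested member, are not reported here and not drawn, but stay in the tests and counts. Alternatives were DESeq2, limma voom, other scalings and filters, fits of 2 groups, a replicate block, and leaving out each library.

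The labels number libraries 1 to 3 in each population without saying what a number shares. After subtraction of group means, HR+ LP and ML libraries of the same number correlated across genes at 0.183, 0.121 and 0.189, all over 0.1, so the numbers were taken to pair these populations, from the data alone. For HR- LP the values were 0.133, 0.0389 and 0.147 with HR+ LP and 0.0526, 0.0254 and 0.0849 with ML. Not all passed 0.1, and no pairing was taken. Libraries of different numbers gave −0.142 to −0.0503 for HR+ LP with ML. They gave −0.146 to 0.0192 for HR- LP with HR+ LP and −0.0816 to 0.0183 with ML. Each same-number value was thus the highest for its libraries, so a pairing of HR- LP is not excluded. The main test used no block for any pair.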

Additional observations from a re-analysis of the deposited data

How the results depend on the processing

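The numbers of members called stayed within 1.5 times under all 17 alternatives, except that 2 members, Slc38a1 and Slc5a6, were higher in ML than in HR+ LP in a fit of those 2 groups alone, against 0. Leaving out each library gave 14 to 17 higher and 11 to 17 lower members for HR+ LP minus HR- LP, 0 to 0 and 11 to 15 for ML minus HR+ LP, and 15 to 19 and 20 to 24 for ML minus HR- LP. Without HR- LP replicate 3, which stood apart, these were 17 and 13, 0 and 15, and 19 and 22. Of the called members 7 of 32, 5 of 14 and 6 of 40 lost the call under at least 1 alternative. Besides those named above, these were Slc1a2 (adjusted p up to 0.113) and Slc1a5 without ML replicate 1 (0.0615), for ML minus HR- LP. Scaling by library totals moved the median of all genes by 0.11, 0.05 and 0.16 on the log2 scale and the split of all genes from 2731 higher and 2033 lower to 3182 and 1535 for HR+ LP minus HR- LP, while members went to 16 and 14. For ML minus HR- LP that scaling changed the split of all genes from 3700 and 3389 to 4463 and 2801.

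The replicate block gave 17 higher and 16 lower members for HR+ LP minus HR- LP, where Slc38a3 lost its call (0.0671) and Slc38a2 (−0.48, 0.00575) and Slc16a12 (1.92, 0.0392) gained one. It gave 0 and 15 for ML minus HR+ LP, changing no call beside those of Slc5a9, Slc2a1 and Slc7a5, and 19 and 23 for ML minus HR- LP, where Slc6a9 (1.0, 0.0343) and Slc7a1 (0.63, 0.0230) gained one.

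Fold changes under each setting were followed for 27 members, of which 5 changed sign where not called, all in ML minus HR+ LP. Slc1a5 was 0.01 with library totals, which moved all genes there by 0.05, and 0.01 without ML replicate 3. The cause of the other changes was not tested. Slc16a3 was −0.11 and −0.37 without HR+ LP replicates 1 and 2 and −0.43 without ML replicate 2. Slc16a11 was −0.05, −0.04 and −0.04 without HR+ LP replicate 2, ML replicate 2 and ML replicate 3. Slc16a1 was 0.05 and 0.03 without ML replicates 1 and 3, and Slc16a5 was −0.03 without ML replicate 2. Over all left-out libraries Slc16a1 ranged from −0.35 to 0.05, Slc16a3 from −0.43 to 0.73, Slc1a5 from −0.14 to 0.01 and Slc16a11 from −0.05 to 0.15.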

Other observations

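Lactose is made from glucose and UDP-galactose by a synthase that joins B4galt1 to alpha-lactalbumin, encoded by Lalba. All 7 genes of that path were tested. Lalba had 71.0 ± 21.0, 18.1 ± 7.68 and 0.0739 ± 0.0662 CPM in HR- LP, HR+ LP and ML (SD, n = 3), and was lower at each step in edgeR's test (−1.97 ± 0.35, adjusted p = 0.00182, then −7.74 ± 0.56, adjusted p = 5.21e-06). Ugp2 was lower in HR+ LP than in HR- LP as well, at 108 ± 23.7 and 65 ± 2.92 CPM. Pgm1 and Pgm2 were higher in HR+ LP, Pgm2 at 20.4 ± 7.90, 76.7 ± 14.4 and 105 ± 22.6 CPM (1.92 ± 0.26, adjusted p = 3.62e-04).

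Of 20 genes by which the kinase mTORC1 senses amino acids, 4 were higher and 1 lower in HR+ LP than in HR- LP. This share, 25%, was below the 29.9% called among all tested genes. Castor2, a relative of the arginine sensor Castor1, had 1.54 ± 1.02, 20.3 ± 0.815 and 26.2 ± 4.42 CPM (3.67 ± 0.39, adjusted p = 6.52e-05). Nprl3, Lamtor1 and Mtor were the other genes higher, and Sesn3 the one lower, at 49.0 ± 5.18, 34.2 ± 4.13 and 21.8 ± 3.42 CPM.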
